A study of Homo sapiens with 6 samples.

Results

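The 31 genes described here encode the enzymes that build cholesterol and fatty acids, and the proteins that set how active the sterol regulatory element-binding proteins (SREBPs) are. They were chosen by name and make up 31 of the 58735 genes in the count table. They fall into 4 roles, with 7 genes of the mevalonate pathway, 11 genes from squalene to cholesterol, 6 genes of SREBP control and sterol transfer, and 7 genes of fatty acid synthesis. RNA of the human triple-negative breast cancer (TNBC) line MDA-MB-231 was compared between parental cells (3 libraries) and Adriamycin-resistant ADRr cells (3 libraries). Adriamycin (ADR) is the anthracycline doxorubicin. ADRr cells were derived from the parental line in rising doses of ADR and then isolated by limiting dilution, so the resistant group may stand for a single clone. The study gives a serum-containing medium for MDA-MB-231 cells and does not name a separate base medium for ADRr cells. The sources used here do not give the dose of ADR, if any, at harvest. The series text speaks of 3 time points, which no sample label names, and the labels do not say that the libraries of a group came from separate cultures. The p-values below therefore measure the spread between these libraries, which may be technical.

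Cholesterol is made from acetyl-CoA by way of mevalonate, farnesyl diphosphate, squalene and lanosterol. SREBPs are transcription factors held in the membrane of the endoplasmic reticulum. When membrane sterol is low, the escort protein SCAP carries them to the Golgi, where proteases release the part that enters the nucleus and switches on sterol and fatty acid genes. When sterol is high, INSIG proteins keep SCAP in place. Breast cancer cells use the products for membranes and for attaching lipids to signalling proteins.

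The total counts per library ranged from 15983985 to 18272314, and the factors of the TMM normalization (edgeR's correction for composition) from 0.987 to 1.01. All 31 genes passed edgeR's filter on low counts, with 80 to 6656 counts in a library, and were tested with 15242 genes in all. Levels of a gene are given as normalized CPM, its counts scaled to the TMM-adjusted library total. A gene was called higher or lower in ADRr cells at an adjusted p of at most 0.05 by edgeR's quasi-likelihood test and a fold change of at least 1.2. The markers of MDA-MB-231 cells VIM, CD44, CAV1, LGALS1 and TGFBI were present, with a summed level of 3249 to 3350 CPM in parental and 3077 to 3142 CPM in ADRr libraries. Of 7 luminal epithelial markers, 4 had at most 10 counts in every library (ESR1, PGR, FOXA1 and KRT20, with PGR and KRT20 at 0), and their summed level was 53.4 to 59.8 CPM in parental and 59.2 to 63.1 CPM in ADRr libraries. Single markers within these sums differed by edgeR, with CAV1 (log2 fold change -1.30), TGFBI (-0.73), VIM (-0.56) and the luminal CDH1 (-1.07) called lower in ADRr cells, and CD44 (0.80) and the luminal EPCAM (1.10) called higher. GATA3, the largest part of the luminal sum in parental cells, was not called (-0.22), though its groups did not overlap. The summed level of 7 leukocyte markers was 3.34 to 4.76 CPM in parental and 1.23 to 2.30 CPM in ADRr libraries, of 7 adipocyte markers 4.32 to 7.85 and 2.96 to 4.50 CPM, and of 5 hepatocyte markers at most 0.501 CPM. At most 10 counts in every library were found for 6 leukocyte, 6 adipocyte and 5 hepatocyte markers, and ADIPOQ, LEP and FABP4 were at 0. Most of the leukocyte sum was CSF1R (log2 fold change -1.31) and most of the adipocyte sum was LIPE (-0.65). Both were called lower in ADRr cells, LIPE with overlapping groups. The part of these cells' transcripts in the results was not tested.

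The 31 genes did not move as a block between parental and ADRr cells. In 3 of the 4 roles some genes rose and others fell, and in fatty acid synthesis 5 genes fell and 0 rose. The genes called higher in ADRr cells were LSS, SQLE, INSIG1, SREBF1 and PMVK. Those called lower were ACAT2, FADS2, EBP, TM7SF2, ELOVL6, SCAP, ACACA, DHCR7, FDPS, ACLY, MSMO1, SREBF2 and FADS1. That is 5 genes higher (16.1%), where 29.2% of all tested genes were called higher, and 13 genes lower (41.9%), where 29.6% of all tested genes were called lower. The remaining 13 genes were not called. The ADRr and parental libraries did not overlap for 21 of the 31 genes (67.7%), against 69.2% of all tested genes. The median log2 fold change of the 31 genes was -0.08, beside -0.01 for all tested genes, and the median size of the change regardless of direction was 0.48 beside 0.46. The share called higher lay below that of all tested genes and the share called lower above it, and these differences were not tested. In bulk RNA, fewer cells with a transcript and less of it per cell cannot be told apart.

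**Figure D1:**
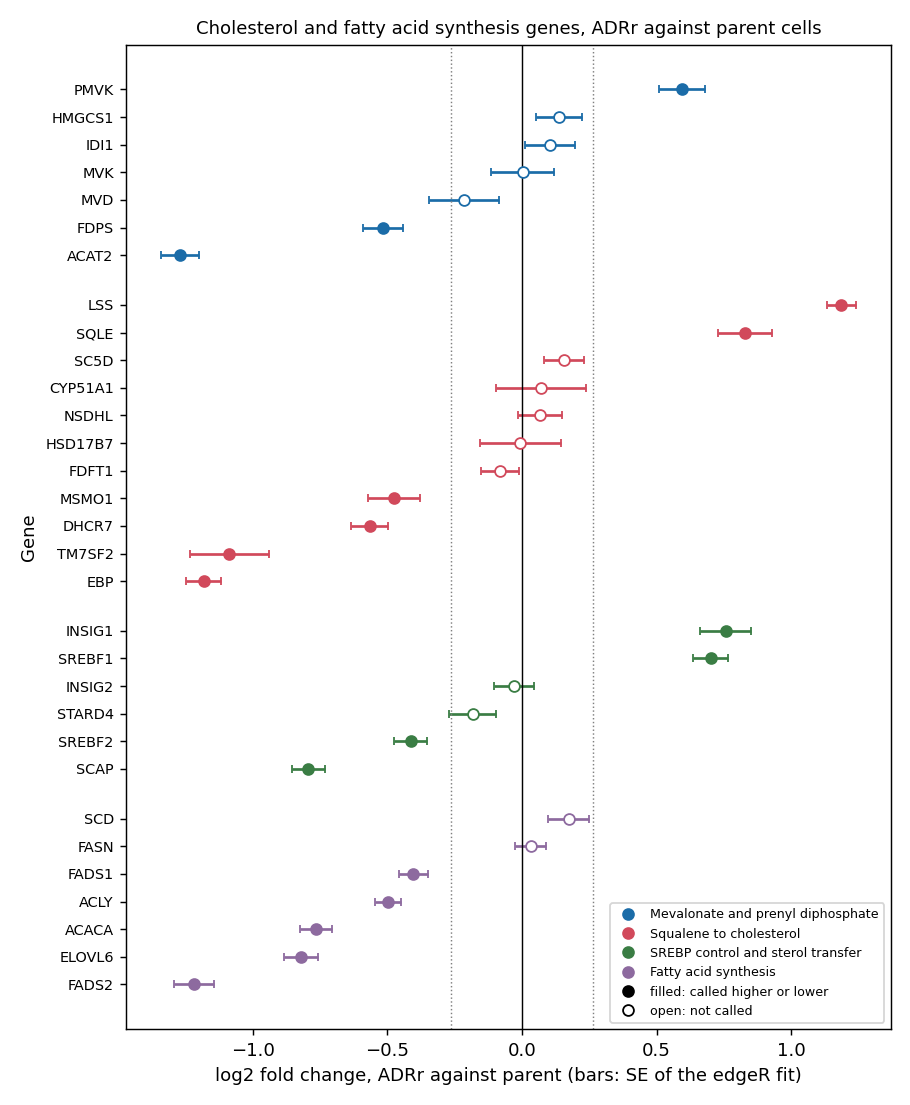
The log2 fold change of each gene (ADRr against parent, x axis) with its standard error from the edgeR fit, grouped by role; filled points were called and the dotted lines mark a fold change of 1.2. Every role but fatty acid synthesis, with 0 genes called higher and 5 lower, has filled points on both sides of 0.

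The genes of SREBP control divided within the pathway. SREBF1, which encodes the SREBP with the larger part in fatty acid synthesis, and INSIG1, which retains SCAP and is itself an SREBP target, were higher in ADRr cells. SREBF2, which encodes the SREBP that mainly drives cholesterol genes, and SCAP were lower. INSIG2 and STARD4, a carrier of sterol between membranes, were not called.

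SREBF1 (ENSG00000072310, chromosome 17, 17810399 to 17837002, minus strand, GRCh38) had 77.6, 68.4 and 80.4 normalized CPM in the parental libraries and 119, 127 and 122 in the ADRr libraries. All ADRr libraries lay above all parental libraries. Its log2 fold change was 0.70 (SE 0.064, n = 3 per group, adjusted p = 2.0e-09 from edgeR). SREBF2 (ENSG00000198911, chromosome 22, 41833079 to 41907308, plus strand) had 99.3, 94.7 and 104 normalized CPM in the parental and 74.1, 76.7 and 73.0 in the ADRr libraries, again without overlap but in the opposite direction. Its log2 fold change was -0.41 (SE 0.060, adjusted p = 2.4e-06). The pair therefore changed order per length. SREBF1 had 9.20 ± 0.766 FPKM (fragments per kilobase of transcript, scaled to depth) against 12.9 ± 0.589 for SREBF2 in parental cells (mean ± SD, n = 3), and 15.0 ± 0.493 against 9.69 ± 0.221 in ADRr cells. The ratio of SREBF1 to SREBF2 in FPKM was 0.736, 0.680 and 0.728 in the parental libraries and 1.51, 1.56 and 1.58 in the ADRr libraries. This ratio and the 3 others below were formed after the values were seen, and for each the exact two-sided permutation test gave p = 0.1, the smallest that 3 against 3 libraries allow. In each ratio the numerator was higher and the denominator lower in ADRr cells, both without overlap. This p was therefore fixed by the choice of genes, and it adds no support.

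SCAP (ENSG00000114650, chromosome 3, 47413694 to 47477126, minus strand) had 117, 117 and 130.5 normalized CPM in parental and 69.1, 73.0 and 67.9 in ADRr libraries. The groups were well apart, and the log2 fold change was -0.79 (SE 0.062, adjusted p = 1.5e-10). INSIG1 (ENSG00000186480, chromosome 7, 155297776 to 155310235, plus strand) had 14.6, 17.4 and 15.8 normalized CPM in parental and 27.1, 26.8 and 26.7 in ADRr libraries. The ADRr libraries were close to each other and all above the parental ones, with a log2 fold change of 0.76 (SE 0.094, adjusted p = 2.7e-07). In FPKM the ratio of INSIG1 to SCAP was 0.232 ± 0.0269 in parental and 0.677 ± 0.0260 in ADRr cells. INSIG2 (ENSG00000125629, chromosome 2, 118088452 to 118110997, plus strand) had 37.9, 36.3 and 37.8 normalized CPM in parental and 36.3, 37.7 and 35.7 in ADRr libraries, with overlapping groups. Its log2 fold change was -0.03 (SE 0.074, 95% interval -0.19 to 0.12, adjusted p = 0.73). STARD4 had 32.0 ± 2.90 normalized CPM in parental and 28.1 ± 0.939 in ADRr cells, a log2 fold change of -0.18 that was not called (adjusted p = 0.066).

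SREBPs bind the sterol regulatory element, and also E-boxes, commonly beside sites for NF-Y and SP1. Promoter windows of RefSeq (GRCh38.p14, 250 bases before to 50 after a start) matched 27 of the 31 genes, with 37 windows in all. ACAT2, FASN, FDFT1 and SQLE were not among them. The windows were searched on both strands for a form of the sterol element spelled TCACNCCAC, for the E-box spelled CACGTG, for the NF-Y motif CCAAT and for the SP1 motif spelled GGGCGG, and no pair of different motifs overlapped in the windows of these genes. TCACNCCAC was found in 1 of the 27 genes, SREBF2, or 1 of their 37 windows (2.70%), against 1.13% of all 35116 windows. CACGTG was found in 4 genes (INSIG1, LSS, SC5D and SCAP), or 5 of their 37 windows (13.5%), against 7.26% of all windows. CCAAT was found in 20 genes (74.1%), or 24 of their 37 windows (64.9%), against 34.6% of all windows, and GGGCGG in 26 genes (96.3%), or 33 windows (89.2%), against 45.0%. A match describes letters only, and both genes called higher and genes called lower held CCAAT.

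The bases before the start are shown for LSS, EBP and TM7SF2, 3 of the 5 genes whose log2 fold change was 1 or more in size (FADS2 has several windows and ACAT2 none), and for SCAP and INSIG1, which hold CACGTG and moved in opposite directions. A stretch of 60 bases is shown for SREBF2 because it holds the only match to TCACNCCAC, 133 bases before the start. The last 3 were chosen after their values were seen. Capitals mark the sterol element, the E-box and the NF-Y motif (read as ATTGG where it lies on the opposite strand), and each sequence reads 5′ to 3′ on the gene's strand.
LSS, chr21:46228775-46229024, minus strand: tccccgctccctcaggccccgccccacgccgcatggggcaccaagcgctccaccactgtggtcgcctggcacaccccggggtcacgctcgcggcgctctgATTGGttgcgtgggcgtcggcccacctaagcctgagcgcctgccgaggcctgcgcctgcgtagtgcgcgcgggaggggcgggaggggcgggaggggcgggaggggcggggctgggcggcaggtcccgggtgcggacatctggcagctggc
EBP, chrX:48521558-48521807, plus strand: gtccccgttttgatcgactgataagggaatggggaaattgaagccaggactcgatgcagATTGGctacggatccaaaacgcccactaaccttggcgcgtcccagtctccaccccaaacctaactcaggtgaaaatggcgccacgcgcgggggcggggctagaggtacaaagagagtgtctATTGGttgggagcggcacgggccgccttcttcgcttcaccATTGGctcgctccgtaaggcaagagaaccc
TM7SF2, chr11:65111622-65111871, plus strand: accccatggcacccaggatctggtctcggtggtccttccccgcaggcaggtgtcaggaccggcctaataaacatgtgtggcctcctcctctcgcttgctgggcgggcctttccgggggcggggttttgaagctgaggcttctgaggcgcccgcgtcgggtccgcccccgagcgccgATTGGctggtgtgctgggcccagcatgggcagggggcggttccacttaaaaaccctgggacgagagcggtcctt
SCAP, chr3:47475942-47476191, minus strand: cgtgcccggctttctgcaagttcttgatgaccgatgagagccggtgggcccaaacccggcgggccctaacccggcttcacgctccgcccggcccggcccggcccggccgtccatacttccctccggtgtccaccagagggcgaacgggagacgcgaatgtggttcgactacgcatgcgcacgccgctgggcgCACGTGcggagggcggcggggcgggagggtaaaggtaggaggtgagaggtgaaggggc
INSIG1, chr7:155297628-155297877, plus strand: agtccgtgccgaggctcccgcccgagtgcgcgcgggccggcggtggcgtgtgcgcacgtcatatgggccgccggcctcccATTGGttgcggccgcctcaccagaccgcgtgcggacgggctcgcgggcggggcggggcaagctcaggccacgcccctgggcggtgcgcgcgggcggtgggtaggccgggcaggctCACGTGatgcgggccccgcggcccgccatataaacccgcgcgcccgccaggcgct
SREBF2, chr22:41832952-41833011, plus strand: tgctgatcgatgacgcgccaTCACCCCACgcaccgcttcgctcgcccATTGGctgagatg
In INSIG1, called higher, CACGTG begins 55 bases before the start, and in SCAP, called lower, 58 bases before it. In LSS, called higher, CACGTG begins at base 41 after the start, outside the bases shown. EBP, called lower, holds 3 matches to CCAAT and LSS 1. RefSeq's start is not always the outermost start of the gene in GENCODE 29, so a window can lie within the annotated gene, as for EBP.

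In the mevalonate pathway 1 of 7 genes was called higher (14.3%, against 29.2% of all tested genes). Another 2 were called lower (28.6%, against 29.6%), and the median log2 fold change was 0.00. ACAT2 (ENSG00000120437, chromosome 6, 159760328 to 159779055, plus strand), the cytosolic thiolase that joins a pair of acetyl-CoA molecules, had the largest fall of all 31 genes. It had 70.0, 71.1 and 70.6 normalized CPM in parental and 30.9, 28.5 and 28.2 in ADRr libraries. The ADRr libraries were 2.41-fold lower, a log2 fold change of -1.27 (SE 0.070, adjusted p = 3.2e-13). PMVK (ENSG00000163344, chromosome 1, 154924734 to 154936991, minus strand), phosphomevalonate kinase, had 21.7, 20.7 and 24.2 normalized CPM in parental and 32.8, 34.0 and 34.0 in ADRr libraries. It was the only gene of this group that rose, by a log2 fold change of 0.60 (SE 0.086, adjusted p = 2.4e-06). FDPS, which makes farnesyl diphosphate at the branch point to sterols, dolichol, ubiquinone and protein prenylation, had 58.8, 54.6 and 64.9 normalized CPM in parental and 41.8, 40.9 and 42.0 in ADRr libraries. It fell by 0.52 on the log2 scale (SE 0.074, adjusted p = 1.9e-06). HMGCS1, the synthase of HMG-CoA and a standard SREBP target, had 26.9, 25.6 and 25.0 normalized CPM in parental and 27.2, 27.9 and 30.0 in ADRr libraries. Its groups did not overlap but were separated by little. Its log2 fold change was 0.14 with a 95% interval of -0.04 to 0.31 (adjusted p = 0.16). A 1.2-fold rise therefore lay within the interval, and a change as large as that of PMVK lay outside it. MVK (mevalonate kinase), MVD (the decarboxylase) and IDI1 (the isomerase) were not called, with log2 fold changes of 0.00, -0.21 and 0.11. MVK had 15.0 ± 1.56 normalized CPM in parental and 15.1 ± 1.88 in ADRr cells, and IDI1 had 32.4 ± 3.73 and 34.8 ± 3.25. MVD had 16.3, 15.3 and 22.2 normalized CPM in parental and 13.5, 17.7 and 15.4 in ADRr libraries, with overlapping groups. Without parent replicate 2, MVD was called lower, with a log2 fold change of -0.32.

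From squalene to cholesterol, 2 of 11 genes were called higher (18.2%, against 29.2% of all tested genes) and 4 lower (36.4%, against 29.6%). The median log2 fold change was -0.01. SQLE and LSS, which act in sequence to oxidize squalene and close it into lanosterol, rose. TM7SF2, MSMO1, EBP and DHCR7, which act on lanosterol and later sterols, fell. FDFT1, CYP51A1, NSDHL, HSD17B7 and SC5D were not called.

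LSS (ENSG00000160285, chromosome 21, 46188141 to 46228824, minus strand), lanosterol synthase, had 89.1, 89.3 and 95.7 normalized CPM in parental and 206, 212 and 206 in ADRr libraries. It had the largest rise of the 31 genes, 2.27-fold or 1.19 on the log2 scale (SE 0.054, adjusted p = 1.1e-14). SQLE (ENSG00000104549, chromosome 8, 124998497 to 125022283, plus strand), squalene epoxidase and a rate-limiting enzyme, had 13.4, 16.7 and 13.9 normalized CPM in parental and 25.6, 25.2 and 27.3 in ADRr libraries. Its groups did not overlap, and its log2 fold change was 0.83 (SE 0.10, adjusted p = 1.9e-07). FDFT1, the squalene synthase just before it, had 50.5 ± 2.75 normalized CPM in parental and 47.7 ± 1.98 in ADRr cells, a log2 fold change of -0.08 (adjusted p = 0.31).

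EBP (ENSG00000147155, chromosome X, 48521158 to 48528716, plus strand), the sterol isomerase, had 84.4, 80.1 and 84.4 normalized CPM in parental and 35.1, 37.9 and 36.6 in ADRr libraries. Its level in ADRr cells was 2.27-fold lower, a log2 fold change of -1.18 (SE 0.067, adjusted p = 4.3e-13). LSS and EBP thus changed by the same fold in opposite directions, and the ratio of LSS to EBP in FPKM went from 0.367 ± 0.0136 to 1.89 ± 0.0510. TM7SF2 (ENSG00000149809, chromosome 11, 65111845 to 65116384, plus strand), a sterol reductase, had 12.3, 10.9 and 13.8 normalized CPM in parental and 4.78, 6.60 and 6.05 in ADRr libraries, a log2 fold change of -1.09 (SE 0.15, adjusted p = 8.4e-07). LBR, a nuclear envelope protein that carries out the same reduction and is not among the 31 genes, was also lower, with a log2 fold change of -0.56 (SE 0.057, adjusted p = 1.1e-08). DHCR7, the reductase of the last step of a route to cholesterol, had 69.6, 62.0 and 70.9 normalized CPM in parental and 45.7, 45.8 and 45.3 in ADRr libraries, and fell by 0.57 on the log2 scale (SE 0.069, adjusted p = 2.0e-07). MSMO1, the methylsterol monooxygenase, had 34.2, 41.3 and 32.3 normalized CPM in parental and 27.8, 22.9 and 26.7 in ADRr libraries. Its log2 fold change was -0.48 (SE 0.098, adjusted p = 1.9e-04).

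The 5 genes of this group that were not called had log2 fold changes from -0.08 to 0.16. CYP51A1, the lanosterol demethylase, was the lowest of the 31 genes per length, at 1.50 ± 0.218 FPKM in parental and 1.58 ± 0.0972 in ADRr cells. This level is uncertain, because CYP51A1 shares most of its exon bases with another annotated gene (below). At its low count, the 95% interval of its log2 fold change of 0.07 ran from -0.28 to 0.42, so a 1.2-fold change in either direction lay within the interval. HSD17B7, a ketosteroid reductase, had 7.88 ± 0.913 normalized CPM in parental and 7.81 ± 1.15 in ADRr cells, and its interval of -0.32 to 0.31 was almost as wide. SC5D, the sterol desaturase, had 36.9 ± 0.722 normalized CPM in parental and 41.0 ± 2.18 in ADRr cells. Its groups did not overlap, but its log2 fold change of 0.16 missed both thresholds (adjusted p = 0.073). NSDHL, a sterol dehydrogenase, had 27.9 ± 1.09 and 29.2 ± 0.654 normalized CPM (adjusted p = 0.48).

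**Figure D2:**
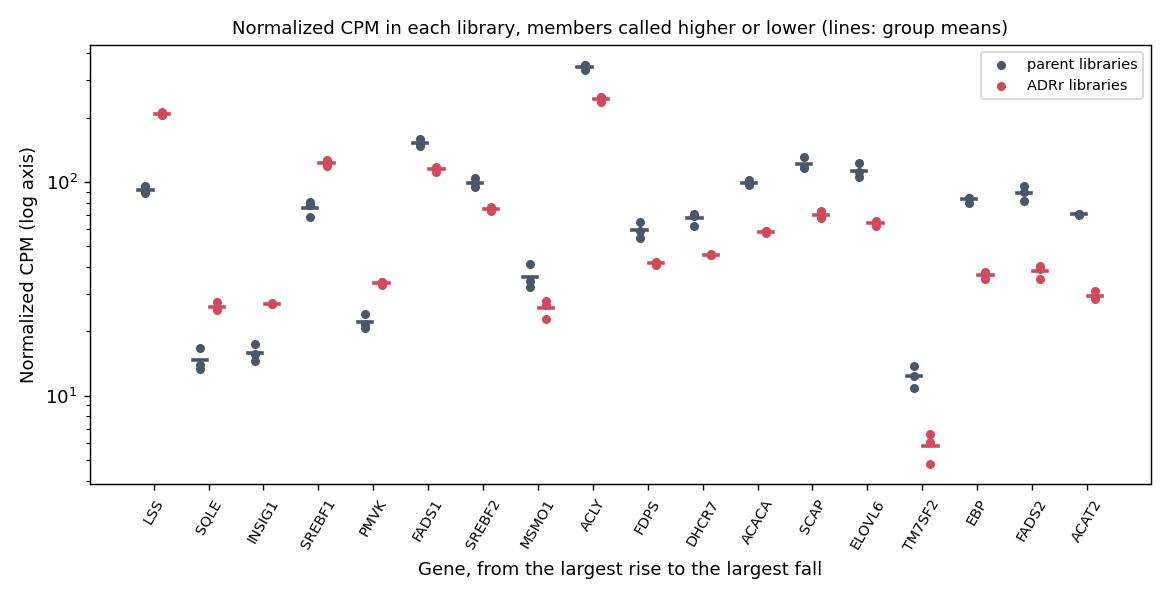
Normalized CPM (log axis) in each of the 3 parental and 3 ADRr libraries for the 18 genes called higher or lower, ordered from the largest rise to the largest fall, with lines at the group means. LSS and ACAT2 stand at the ends. The groups do not overlap for any of the 18 genes, which were picked by their calls in these same libraries. Of all tested genes, 69.2% do not overlap.

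Fatty acid synthesis was the role with genes called in 1 direction only, with 5 of 7 lower (71.4%, against 29.6% of all tested genes) and 0 higher. Its median log2 fold change was -0.50. The difference in share was not tested, and the 5 falls may not be independent. FADS1 and FADS2 are neighbours that share exon bases, and 26 of the 50 tested genes nearest to ACACA were also called lower. ACLY, which makes cytosolic acetyl-CoA from citrate, ACACA, which carboxylates it to malonyl-CoA, ELOVL6, an elongase, and FADS1 and FADS2, the desaturases of polyunsaturated fatty acids, were lower in ADRr cells. FASN, the fatty acid synthase itself, and SCD, which desaturates its products, were not called.

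FADS2 (ENSG00000134824, chromosome 11, 61792980 to 61867354, plus strand) had 81.3, 89.8 and 95.5 normalized CPM in parental and 39.3, 40.5 and 35.0 in ADRr libraries. This was the largest fall of the role, 2.33-fold or -1.22 on the log2 scale (SE 0.075, adjusted p = 2.0e-12). FADS1, its neighbour on the opposite strand, had 148, 158 and 150.3 normalized CPM in parental and 116, 111 and 118 in ADRr libraries, and fell less, by 0.40 on the log2 scale (SE 0.055, adjusted p = 9.8e-07). ELOVL6 went from 105, 123 and 111 to 64.1, 62.1 and 65.6 normalized CPM, a log2 fold change of -0.82 (SE 0.065, adjusted p = 1.6e-10). For ACACA the libraries had 97.1, 99.1 and 102 normalized CPM in parental and 57.7, 58.8 and 58.7 in ADRr cells, a log2 fold change of -0.77 (SE 0.059, adjusted p = 1.1e-10). ACLY, the most abundant of the 31 genes per length, went from 351, 335 and 354 to 250.0, 236 and 250.2 normalized CPM, a log2 fold change of -0.50 (SE 0.049, adjusted p = 7.5e-09).

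FASN stood apart from the enzymes before it in the pathway. It had 357, 321 and 379 normalized CPM in parental and 354, 380.0 and 347 in ADRr libraries, with overlapping groups. Its log2 fold change was 0.03 with a 95% interval of -0.09 to 0.15 (adjusted p = 0.63), so a 1.2-fold change lay outside the interval. SCD had 45.2, 39.7 and 38.5 normalized CPM in parental and 47.1, 46.9 and 45.2 in ADRr libraries. Its groups were separated by little, and its log2 fold change of 0.17 (adjusted p = 0.049) was below the fold threshold. In FPKM the ratio of SCD to FADS2 was 0.960 ± 0.163 in parental and 2.50 ± 0.139 in ADRr cells.

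Compared per length, the 31 genes spanned 1.50 (CYP51A1, an uncertain level) to 65.0 FPKM. ACLY and FASN were the highest in both groups, ACLY with 65.0 ± 1.96 FPKM in parental and 46.2 ± 1.69 in ADRr cells, and FASN with 36.8 ± 3.04 and 37.8 ± 1.72. EBP was the third in parental cells (33.7 ± 1.04 FPKM) and the sixth in ADRr cells (14.9 ± 0.567 FPKM). LSS took the third place in ADRr cells, going from 12.4 ± 0.480 to 28.2 ± 0.381 FPKM, and PMVK the fourth with 25.8 ± 0.536 FPKM, from 17.0 ± 1.36. ACAT2, at 16.1 ± 0.102 FPKM, was the sixth in parental cells and rank 21 in ADRr cells at 6.68 ± 0.340 FPKM. The level of ACAT2 is uncertain because it shares exon bases with other genes (below). In ADRr cells the places of SREBF1 (15.0 ± 0.493 FPKM) and EBP did not differ beyond their spread.

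**Figure D3:**
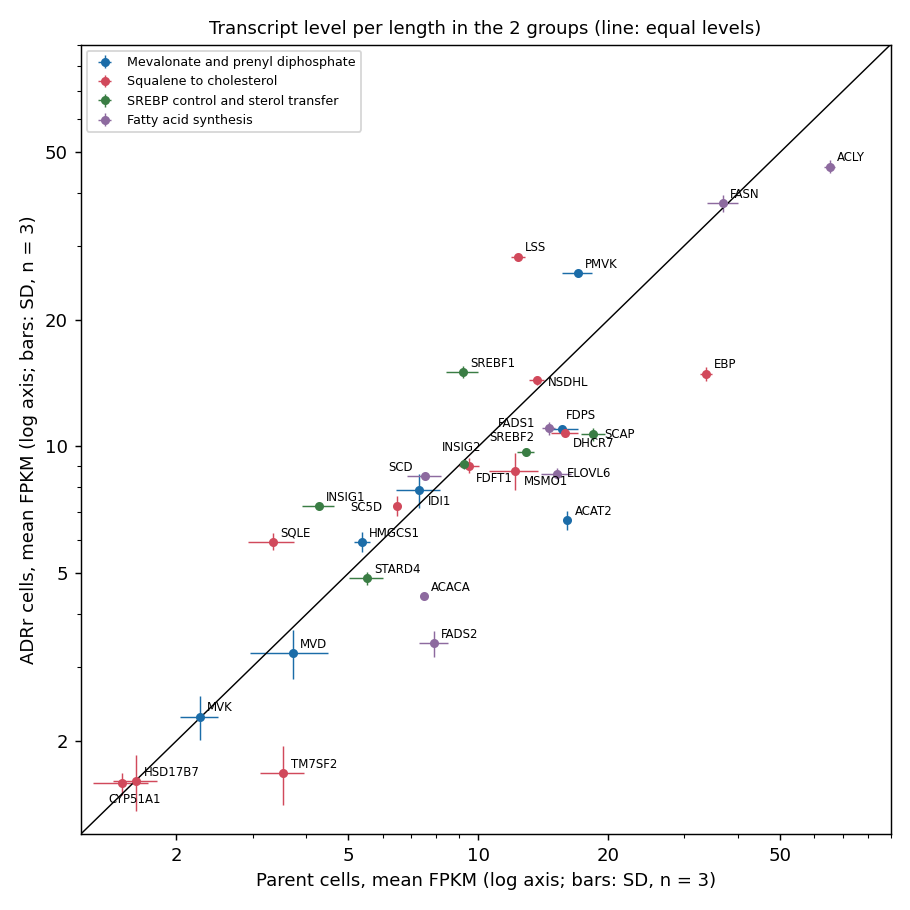
Mean FPKM of each gene in parental (x axis) and ADRr cells (y axis), both on log axes, with bars for the SD over 3 libraries; the line marks equal levels. ACLY and FASN are at the top right, LSS, SREBF1, SQLE and INSIG1 lie above the line and ACAT2, EBP, FADS2 and TM7SF2 lie furthest below it.

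Several of the genes lie in stretches of a chromosome whose tested genes differed in the same direction between the groups, and the part of this in their change was not tested. The median log2 fold change of the 50 nearest tested genes was taken as the level of the surroundings. Around LSS on chromosome 21 it was 0.50, with 30 genes called higher and 5 lower, and LSS exceeded it by 0.68 on the log2 scale. Around SCAP on chromosome 3 it was -0.52, with 32 called lower and 2 higher, and SCAP lay 0.27 below it (log2 difference -0.27). For MSMO1 on chromosome 4 the surroundings fell further than the gene, with a median of -0.77 and 31 genes called lower. The medians around ACACA and ACAT2 were -0.41 and -0.34, with 26 and 25 genes called lower. Around IDI1, which was not called, 31 of 50 genes were called higher and 0 lower, with a median of 0.47. The surroundings of EBP (0.06), FADS2 (-0.08), TM7SF2 (-0.12), SREBF2 (0.09), INSIG1 (-0.19) and PMVK (-0.05) had medians between -0.19 and 0.09, and the log2 fold changes of these genes differed from them by -1.24 (EBP) to 0.95 (INSIG1). For SREBF1 the median was 0.20, against 0.70 for the gene, and for SQLE 0.22 against 0.83.

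**Figure D4:**
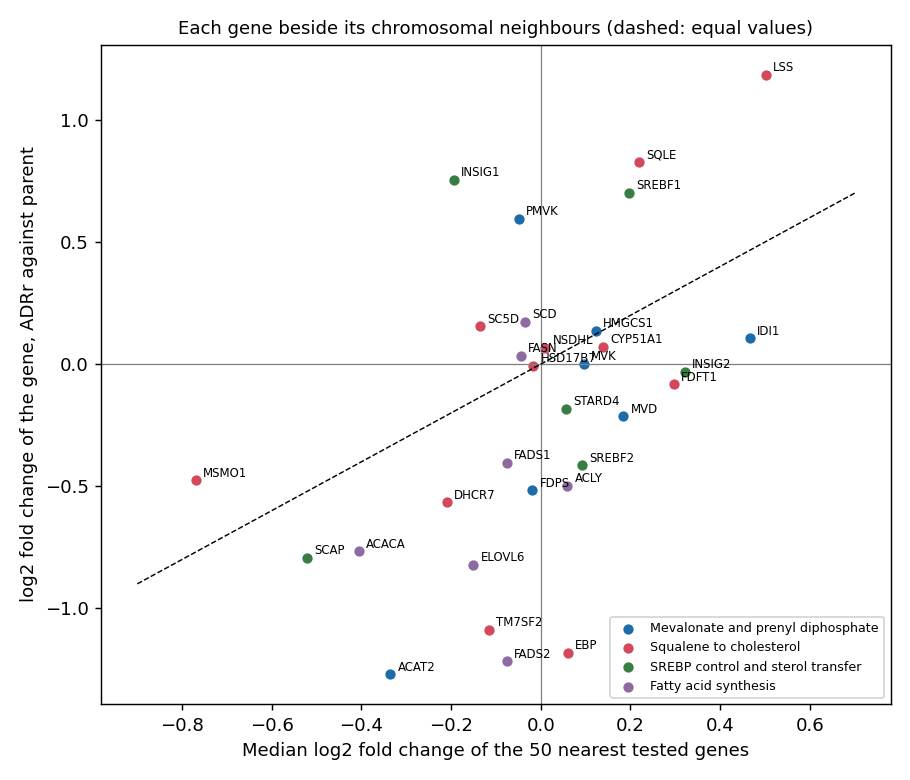
The log2 fold change of each gene (y axis) against the median log2 fold change of its 50 nearest tested genes on the same chromosome (x axis), coloured by role; the dashed line marks equal values. EBP, FADS2, INSIG1 and PMVK lie far from the dashed line near x = 0, and MSMO1, SCAP and LSS have surroundings shifted by at least 0.50 in size.

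Some exon bases of these genes are shared with other annotated genes. Whether the counting used strand is not given in the sources used here, so reads from a gene and its antisense partner cannot be told apart. CYP51A1 shares 79.4% of its exon bases with AC000120.2 on the same strand, which had 0 counts in every library. The level of CYP51A1 is therefore uncertain. ACAT2 shares 9.23% with TCP1 on the opposite strand, which had 3978 to 5656 counts and a log2 fold change of -0.43, and larger shares with SOD2 (26.5%) and SOD2-OT1 (33.9%), which had at most 1 count. Whether reads in shared bases were assigned to either gene is not given in the sources used here. The level of ACAT2 is therefore uncertain as well, and these low counts do not show that SOD2 is silent. FDPS shares 18.6% with RUSC1-AS1 (log2 fold change -0.48), FADS1 and FADS2 share 490 bases with each other, and FADS2 shares 0.444% with FEN1 (log2 fold change -0.96). SREBF1 shares 6.92% with RAI1 (0.22) and SREBF2 shares 3.71% with SREBF2-AS1 (-1.85). The listed pseudogenes of FDPS, CYP51A1, HSD17B7, SCD and FADS2 had at most 6 counts in a library except HSD17B7P2, with 13 to 23 counts.

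The other genes of the pathway were taken from 6 lists with 101 genes in the table, of which 97 were tested. Of these, 31 were called higher (32.0%) and 33 lower (34.0%), beside 29.2% and 29.6% of all tested genes. Transport and storage of sterol was the list with the largest share called higher, with 9 of 17 genes, and 5 were lower. ABCG1, a sterol exporter, had 0.901, 0.947 and 0.682 normalized CPM in parental and 12.6, 10.9 and 8.78 in ADRr libraries, a log2 fold change of 3.66 (SE 0.22, adjusted p = 1.9e-12). GRAMD1B, which moves cholesterol from the plasma membrane to the endoplasmic reticulum, had 44.2, 46.0 and 43.2 normalized CPM in parental and 3.06, 4.52 and 4.31 in ADRr libraries, a log2 fold change of -3.49 (SE 0.12, adjusted p = 4.9e-17). These were the extremes of all 6 lists, larger than any change among the 31 genes. The chromosomal surroundings of the genes of these lists were not examined.

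The shares of the next 5 lists stand beside 29.2% higher and 29.6% lower of all tested genes, and the differences were not tested. Among genes of LXR and oxysterols (7 of 10 tested), 2 were higher and 2 lower (28.6% each). Without ADRr replicate 1 the count higher was 1. CH25H, which makes an oxysterol that holds SREBPs inactive, had 0.361, 1.33 and 1.36 normalized CPM in parental and 9.61, 10.4 and 11.1 in ADRr libraries. Its log2 fold change was 3.34 (SE 0.25, adjusted p = 7.3e-11 by edgeR). The counts behind it were 6, 21 and 24 in parental and 173, 170 and 203 in ADRr libraries. CH25H thus passed the filter on low counts through the ADRr libraries, and a minimum of 10 counts in every library leaves it out. The size of its change is therefore uncertain. NR1H3, which encodes the oxysterol receptor LXR alpha, was lower by edgeR (log2 fold change -0.89, adjusted p = 4.5e-06). In the list of SREBP processing and sterol sensing, 3 of 15 genes were higher and 5 lower, with C12orf49, which takes part in SREBP cleavage, at 0.83 and RNF145, a sterol-responsive ubiquitin ligase, at -1.30 on the log2 scale. In the prenyl branch and other sterol enzymes 4 of 16 were higher (25.0%) and 6 lower (37.5%). GGPS1 (geranylgeranyl diphosphate synthase) was at 0.94 and FNTB (the beta subunit of farnesyltransferase) at -1.15. Other lipogenic genes had 8 of 22 tested higher (36.4%) and 9 lower (40.9%), with DGAT2, an enzyme of triglyceride synthesis, at 1.63 and the desaturase SCD5 at -2.23. In fatty acid oxidation 5 of 20 were higher (25.0%) and 6 lower (30.0%), with HADHB at 0.95 and HADH at -1.18.

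**Figure D5:**
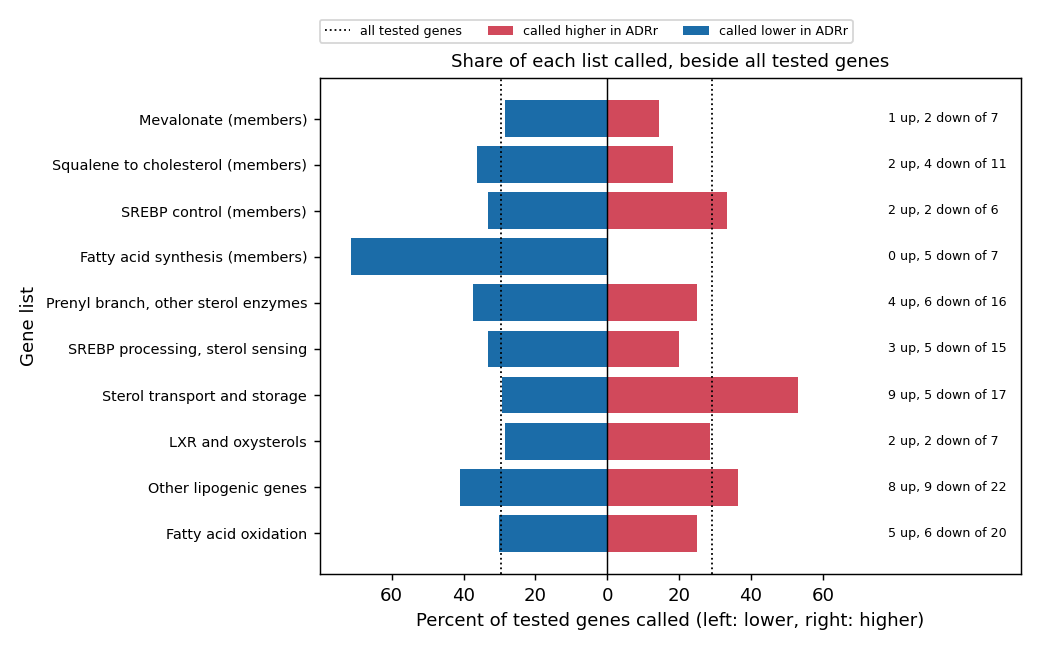
Percent of the tested genes of each list called higher (right) or lower (left) in ADRr cells, with counts at the right; dotted lines mark the 29.2% higher and 29.6% lower of all tested genes. Fatty acid synthesis reaches furthest to the left (5 of 7) and sterol transport and storage furthest to the right (9 of 17).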

How the data were processed

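RNA-seq of 3 parental and 3 ADRr libraries was used, grouped by the sample labels. The authors deposited gene counts (whole numbers, not normalized) and FPKM values made from them. The submitters' processing notes name fastp, HISAT2 2.0.5, featureCounts 1.5.0-p3, DESeq2 1.20.0 and GRCh38, and the coordinates and exon lengths of the 31 genes are those of GENCODE 29. The total that the deposited FPKM values imply lies 0.905 to 3.10% above the sum of counts, so FPKM served for levels between genes and as an alternative. The study's methods and the labels describe different library kits and amounts of RNA, and the strand setting of the counting is not given in the sources used here.

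Differences in counts were tested with edgeR 4.0.16 in R 4.3.3 (filterByExpr, TMM, quasi-likelihood test), with p-values adjusted by Benjamini-Hochberg over 15242 genes. No block for the replicate number was used, as the study names none. The median SE of a log2 fold change was 0.0964. Intervals are at 95% and cover the spread between libraries. The scripts were tested on simulated data. The alternatives were DESeq2 1.42.0, its size factors or library size alone in edgeR, testing of protein-coding genes only, a minimum of 10 counts per library or none, limma-trend (3.58.1) on log2(FPKM + 1) or log2(FPKM + 0.1) with a mean FPKM of at least 0.5, log2(FPKM + 1) with no filter, a replicate block, leaving out each library, calls by adjusted p alone, and calls at a log2 fold change of 1.2 in size.

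The 31 genes and all lists were chosen with earlier results of these data known. All 31 genes are accounted for. Values are in full for SREBF1, SREBF2, SCAP, INSIG1 and INSIG2, for the largest rise and fall called in each role and for changes of 1 or more in size on the log2 scale, and each other list is represented by its largest rise and fall called. LBR and the further genes with full values were named after their values were seen. Some genes of the pathway are not reported here.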

Additional observations from a re-analysis of the deposited data

How the results depend on the processing

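Of 558 values (31 genes under 18 alternatives), 528 kept their direction and their side of the thresholds. With the threshold at 1.2 on the log2 scale in place of a fold of 1.2, 16 of the 18 called genes were no longer called, which leaves 0 higher and 2 lower (ACAT2 and FADS2). The other pathway genes then numbered 4 higher and 7 lower, and all tested genes 1114 higher and 972 lower. By list, this threshold left 0 and 0 genes of the prenyl branch, 0 and 2 of SREBP processing, 2 and 2 of sterol transport, 1 and 0 of LXR and oxysterols, 1 and 3 of other lipogenic genes and 0 and 0 of fatty acid oxidation. MVD without parent replicate 2 (-0.32, adjusted p = 0.025 by edgeR) and SCD with the adjusted p alone were additionally called. The adjusted p alone also gave 5 genes of SREBP processing and 9 of fatty acid oxidation higher, against 3 of the latter with DESeq2 and with limma-trend on log2(FPKM + 1), filtered or not. Of LXR and oxysterols, 1 gene was higher with at least 10 counts in every library or with unfiltered limma-trend, and 1 to 3 with a library left out.

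The direction turned in 12 values, all of genes that were not called and lie near 0. HSD17B7 (-0.01 on the log2 scale) was 0.0195 with library size alone, 0.0030 with at least 10 counts in every library and 0.0057 with protein-coding genes only, and -0.105 to 0.112 with a library left out. With a library left out MVK ranged from -0.0986 to 0.0881, CYP51A1 from -0.0001 to 0.199 and FASN from -0.0363 to 0.0846. The cause was not tested.

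Leaving out each library in turn gave 5 genes higher each time and 13 to 14 lower, 29 to 33 and 32 to 33 of the other pathway genes, and 4297 to 4483 and 4375 to 4610 of all tested genes. With the replicate number as a block, 5 genes were higher and 13 lower, and all tested genes were 4406 and 4464. The block changed no call among the 31 genes. Libraries with the same number did not deviate together (r from -0.0457 to 0.00735 over genes, against -0.0343 to 0.0553 for unlike numbers). This gave no sign of pairing, but with 3 libraries per group the check cannot show that there was none. DESeq2 also called 5 genes higher and 13 lower. The 95% intervals of 8 of the 13 genes that were not called include a 1.2-fold change, and the intervals of CYP51A1 and HSD17B7, the genes with the lowest FPKM, were the widest. The FPKM of CYP51A1 is uncertain because of its shared exon bases.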

Other observations

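Further genes of sterol handling and SREBP processing were chosen after their values were seen. Their groups did not overlap, as was so for 69.2% of all tested genes, and their chromosomal surroundings were not examined. NPC1, which lets cholesterol leave the lysosome, had 145, 152 and 139.9 normalized CPM in parental and 318, 321 and 324 in ADRr libraries, a log2 fold change of 1.14 (SE 0.051, adjusted p = 7.5e-15 from edgeR). ABCA1, a sterol exporter, had 38.9, 35.2 and 31.8 normalized CPM in parental and 84.7, 86.6 and 81.8 in ADRr libraries, a log2 fold change of 1.26 (SE 0.074). NR1H2, which encodes the oxysterol receptor LXR beta, was lower, with 89.0, 75.9 and 96.8 normalized CPM in parental and 46.8, 55.2 and 46.6 in ADRr libraries (log2 fold change -0.82, SE 0.083).

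Of the Golgi proteases that release SREBPs, MBTPS1 was lower (log2 fold change -0.41, SE 0.053, adjusted p = 4.2e-07) and MBTPS2 was not called (0.18, SE 0.062). The groups of MBTPS2 did not overlap, but its change was below the fold threshold (adjusted p = 0.014 by edgeR). VCP, an ATPase that pulls ubiquitinated proteins out of the endoplasmic reticulum, had 594, 590 and 597 normalized CPM in parental and 251, 251 and 243 in ADRr libraries, a log2 fold change of -1.26 (SE 0.046). CPT1A, which takes fatty acids to mitochondria, was higher (0.55, SE 0.055), while HADH was lower.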
